A study of Arabidopsis thaliana with 11 samples.

Results

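The genes described here are 10 Arabidopsis thaliana loci of DNA replication licensing, picked by locus identifier from the 28094 loci that were counted. They are MCM2 to MCM7 (AT1G44900, AT5G46280, AT2G16440, AT2G07690, AT5G44635 and AT4G02060 in order), the loading factors CDC6 (AT2G29680) and CDT1a (AT2G31270), and the sliding clamp genes PCNA1 (AT1G07370) and PCNA2 (AT2G29570). All 10 were found and all 10 passed the filter on low counts. RNA with a polyA tail was sequenced as read pairs from flower buds and leaves of wild type plants at growth stage 6.0, when the first flower opens, grown in soil in a greenhouse with no treatment. The machine was a HiSeq2000 for both flower bud samples and for leaf 1 and 2, and a GA II, an older Illumina instrument, for leaf 3 and 4. These make 3 groups of 2 samples: flower buds, leaf 3 and 4, and leaf 1 and 2. Since the labels do not tie the numbers to separate plants, p-values speak only for the variation among these samples, and that variation may be technical.

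Before a cell copies its DNA, the origin recognition complex marks the starting points, and CDC6 and CDT1 load the ring-shaped MCM helicase, a hexamer of MCM2 to MCM7, onto the DNA there. This loading is called licensing. At the onset of S phase the ring is joined by CDC45 and the GINS complex and unwinds the double helix, while PCNA, a ring of another kind, tethers the DNA polymerases to the template. In plants, E2F transcription factors activate many genes of this machinery and the retinoblastoma-related protein RBR1 restrains E2F. Dividing cells of meristems and young organs use the machinery, and so do leaf cells that copy their DNA without dividing, which is known as the endocycle.

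An exact E2F motif stood in the promoter of 5 of the 10 genes, MCM2, MCM3, MCM4, MCM5 and MCM6. The motif searched was TTTCCCGC, TTTCGCGC, TTTGCCGC or TTTGGCGC on either strand, and the window ran from 250 bases before to 50 bases after the annotated gene start in RefSeq's TAIR10.1. Of 27443 promoters of protein-coding genes, 483 (1.76%) held it. The sites are shown because 5 of the 6 helicase genes hold one. Each is a window of 30 bases, read 5′ to 3′ on the strand of the gene, with the E2F motif in capitals:
MCM2: tggcgccaataTTTCCCGCctaatcgacga
MCM5: cggcccatcagTTTCCCGCcacattgttcc
MCM6: tatactttttaGCGGGAAAatgttagagga
MCM3: ggaaatcaaacGCGCCAAAcaagcgcgtag
MCM4: cagtaataatgGCGCCAAAatcaagtgaag
MCM2 lies on chromosome 1, MCM4 and MCM5 on chromosome 2, and MCM3 and MCM6 on chromosome 5. MCM2 is on the plus strand of its chromosome and the other 4 are on the minus strand. MCM2 and MCM5 have TTTCCCGC on the strand of the gene, MCM6 has the same motif on the opposite strand, and MCM3 and MCM4 have TTTGGCGC on the opposite strand. The distance from the motif to the gene start was 14 bases in MCM2, 19 in MCM5, 35 in MCM4, 46 in MCM6 and 170 in MCM3. The site II motif (TGGGCC or TGGGCT, either strand) was found in 7 of the 10 promoters, those of the same 5 helicase genes, CDT1a and PCNA2, and in 21.7% of all promoters. In MCM5 it stands 29 bases before the start and its letters, ggccca, are in the window shown. The core AACGG of the MSA element, which is bound by MYB3R factors of mitotic genes, was found in 3 of the 10 promoters, those of MCM6, MCM7 and CDT1a, and in 24.7% of all promoters. A match is a description of these letters, and binding was not measured.

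Libraries held 34405145 to 192817049 counted pairs, and summed over runs the samples held 35302492 pairs (leaf 3) to 271060494 pairs (leaf 1). Levels are in CPM, the usual count of read pairs relative to library size, here after TMM scaling, unless they are given per kilobase of the deposited locus length. The flower markers AG, AP3, PI, SEP3 and STK summed to 734 and 534 CPM in flower buds. In the 4 leaf samples they summed to 1.27 to 1.78 CPM. AP3 and STK were at 0 in leaf 3 and 4, and STK also in leaf 2. The 5 photosynthesis markers summed to 6478 and 9254 CPM in flower buds and to 27019 to 52788 CPM in leaves, so the labelled tissues carried their defining markers.

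All 6 MCM genes had their lowest levels in leaf 1 and 2. Between flower buds and leaf 3 and 4 none of the 6 passed the test described below in the main fit. That outcome depended on the setting, as given below. MCM2 had 62.8 and 41.9 CPM in flower bud 1 and 2, 25.1 and 25.5 CPM in leaf 3 and 4, and 3.66 and 0.979 CPM in leaf 1 and 2. MCM6 had 39.3 and 24.7 CPM in flower buds, 16.0 and 16.3 CPM in leaf 3 and 4, and 2.08 and 0.342 CPM in leaf 1 and 2. The samples of each group lay apart from those of the other groups for both genes, and leaf 2 was the lowest sample. MCM4 had 33.3 and 35.4 CPM in flower buds, 22.2 and 22.0 CPM in leaf 3 and 4, and 3.08 and 0.861 CPM in leaf 1 and 2. MCM5 had 29.3 and 37.0 CPM in flower buds, 25.0 and 28.9 CPM in leaf 3 and 4, and 3.41 and 1.01 CPM in leaf 1 and 2. For MCM5 the lower flower bud sample stood close above the higher of leaf 3 and 4. MCM7, known as PROLIFERA, had 26.2 and 41.7 CPM in flower buds, 29.2 and 30.1 CPM in leaf 3 and 4, and 3.37 and 0.733 CPM in leaf 1 and 2. Flower buds and leaf 3 and 4 overlapped for MCM7, because flower bud 1 lay below both of those leaf samples. MCM3 had 58.4 and 35.2 CPM in flower buds, 29.0 and 28.7 CPM in leaf 3 and 4, and 9.47 and 5.25 CPM in leaf 1 and 2. Its groups did not overlap, and leaf 1 and 2 lay nearer to the other samples than for the other 5 helicase genes.

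The loading factors went separate ways. CDT1a, a loader that geminin holds in check in animals, had 34.0 and 20.3 CPM in flower buds, 9.02 and 7.51 CPM in leaf 3 and 4, and 3.25 and 0.711 CPM in leaf 1 and 2. CDC6, the ATPase that works with the origin recognition complex, had 5.28 and 2.98 CPM in flower buds, 12.5 and 12.4 CPM in leaf 3 and 4, and 0.507 and 0.178 CPM in leaf 1 and 2. CDC6 was highest in leaf 3 and 4, with no overlap with flower buds. Its 39 pairs in leaf 2 were the lowest count of any of these genes and gave an exact 95% counting interval from 0.126 to 0.243 CPM, which covers counting error only. PCNA1 had 30.3 and 17.3 CPM in flower buds, 15.5 and 16.3 CPM in leaf 3 and 4, and 1.73 and 0.246 CPM in leaf 1 and 2. PCNA2 had 52.3 and 27.3 CPM in flower buds, 19.0 and 17.7 CPM in leaf 3 and 4, and 4.08 and 1.97 CPM in leaf 1 and 2. Both clamp genes followed the order of the MCM genes other than MCM7, PCNA1 with flower bud 2 close above leaf 4.

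**Figure D1:**
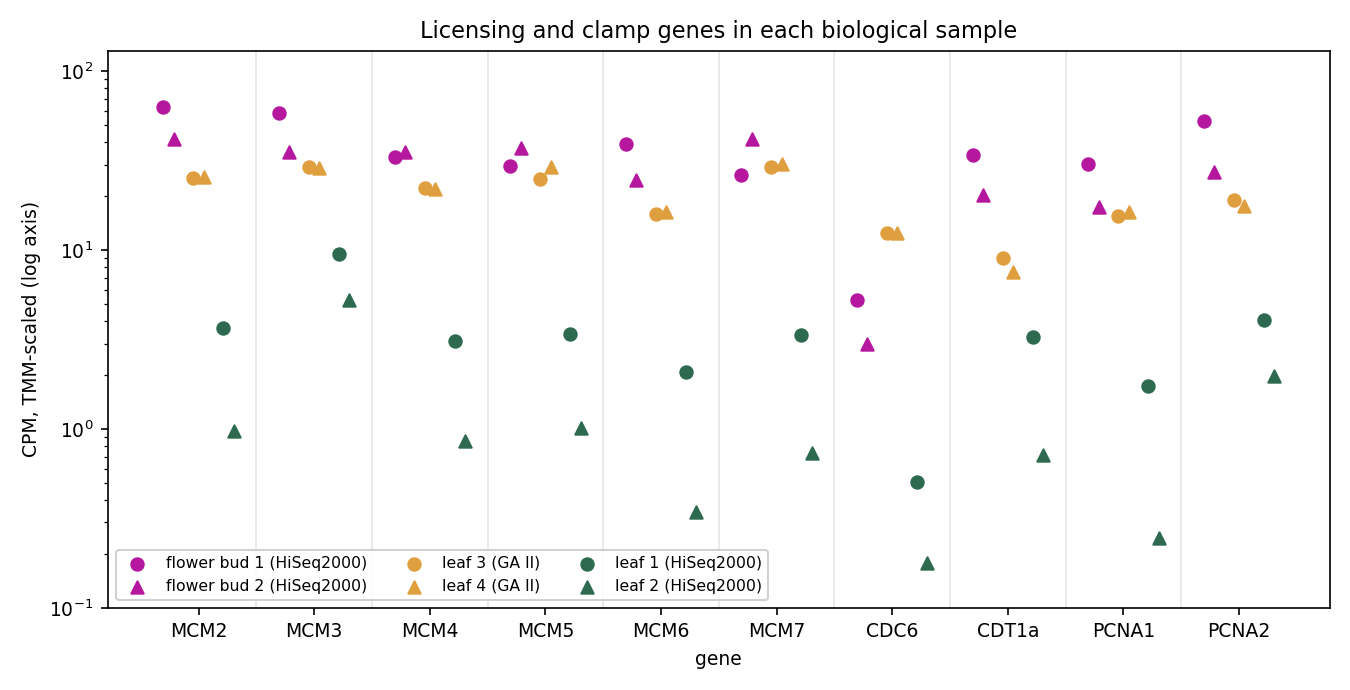
Level of each of the 10 genes in the 6 samples, in CPM on a log axis, with flower buds, leaf 3 and 4, and leaf 1 and 2 in separate colours and 1 point per sample. CDC6 is the gene whose flower bud points, 5.28 and 2.98 CPM, lie below those of leaf 3 and 4, at 12.5 and 12.4 CPM.

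Flower buds against leaf 1 and 2 compares the tissues on the same sequencer. Every one of the 10 genes was higher in flower buds, with the differences of MCM3 and MCM6 at the ends of the range. MCM6 averaged 32.0 ± 10.3 CPM in flower buds and 1.21 ± 1.23 CPM in leaf 1 and 2 (SD, n = 2 each), a log2 fold change of 4.72 ± 0.82 (SE), or 26.4-fold (edgeR quasi-likelihood test with Benjamini-Hochberg adjustment, adjusted p = 0.00334). MCM3 averaged 46.8 ± 16.4 CPM in flower buds and 7.36 ± 2.99 CPM in leaf 1 and 2 (SD, n = 2 each), a log2 fold change of 2.67 ± 0.38, or 6.35-fold (edgeR adjusted p = 0.00164). The log2 fold change of MCM2 was 4.49 ± 0.64, that of MCM4 4.12 ± 0.59, that of MCM7 4.05 ± 0.70 and that of MCM5 3.91 ± 0.57. Among the loaders it was 3.78 ± 0.71 for CDT1a and 3.59 ± 0.57 for CDC6, and for the clamp it was 4.59 ± 0.87 for PCNA1 and 3.72 ± 0.48 for PCNA2. The edgeR adjusted p-values of these 8 genes lay between 0.00104 for PCNA2 and 0.00478 for PCNA1.

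That all 10 genes were called higher stands against 30.5% of the 24043 loci tested, with another 20.9% called lower. The median log2 fold change of the 10 genes was 3.98, against 0.15 over all loci tested. Both flower bud samples lay above leaf 1 and 2 for all 10 genes, which held for 43.0% of all loci tested. With library size only in place of TMM factors, the median over all loci was higher by 0.59 on the log2 scale and the share of calls that were higher was 77.7% in place of 59.3%. All 10 genes were still called higher in that setting. Set against all 4 leaf samples, with no sequencer term, 0 of the 10 genes were called higher, their median log2 fold change was 1.51, and CDC6 was at -0.62 (edgeR adjusted p = 0.795, the highest of 17 settings, of which the lowest gave 4.44e-09). Without leaf 1 the log2 fold changes ran from 3.15 for MCM3 to 6.59 for PCNA1, and without leaf 2 from 2.27 for MCM3 to 3.91 for MCM6. In bulk tissue a smaller share of replicating cells and less RNA per replicating cell cannot be told apart.

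The comparison of leaf 3 and 4 with leaf 1 and 2 is within 1 tissue, and the sequencer and the set of leaf samples cannot be told apart in it. It shares leaf 1 and 2 with the comparison above, so the same low samples enter both. Of the 10 genes, 9 were higher in leaf 3 and 4, against 12.1% of all loci called higher and 15.2% called lower. CDC6 averaged 12.4 ± 0.0750 CPM in leaf 3 and 4 and 0.342 ± 0.233 CPM in leaf 1 and 2 (SD, n = 2 each). Its log2 fold change of 5.18 ± 0.62 (SE), or 36.2-fold, was the highest of the 10 (edgeR adjusted p = 0.00386). The MCM genes ran from 1.97 ± 0.38 for MCM3, or 3.92-fold (edgeR adjusted p = 0.0123), to 3.85 ± 0.70 for MCM7, or 14.4-fold (edgeR adjusted p = 0.0106). MCM2 had a log2 fold change of 3.45 ± 0.61, MCM4 of 3.49 ± 0.57, MCM5 of 3.61 ± 0.57 and MCM6 of 3.73 ± 0.78, PCNA1 of 4.01 ± 0.85 and PCNA2 of 2.60 ± 0.46, with edgeR adjusted p-values from 0.00718 to 0.0167. CDT1a averaged 8.26 ± 1.06 CPM in leaf 3 and 4 and 1.98 ± 1.79 CPM in leaf 1 and 2 (SD, n = 2 each), and its 4.17-fold difference missed the threshold (edgeR adjusted p = 0.0602).

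Both samples of leaf 3 and 4 lay above leaf 1 and 2 for all 10 genes, CDT1a included, which held for 31.7% of all loci tested. The median log2 fold change of the 10 genes was 3.55, against -0.07 over all loci. With library size only, the median over all loci was lower by 0.20 on the log2 scale, the share of calls that were higher was 34.0% in place of 44.4%, and all 10 genes were called higher. The calls depended on both leaf 3 and leaf 4 being in the fit: 3 of the 10 genes were called higher without leaf 3 (MCM4, MCM5 and CDC6) and 1 without leaf 4 (CDC6). Without leaf 3 their median log2 fold change was 3.59 and without leaf 4 it was 3.49. The number of all loci called higher was 430 without leaf 3 and 286 without leaf 4, against 2916 with all samples. Without leaf 1 the median of the 10 genes was 4.72, and without leaf 2 it was 2.92.

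Flower buds against leaf 3 and 4 sets the tissues side by side across different sequencers, which cannot be told apart from tissue here, and the comparison shares its samples with the other 2. Of the 10 genes, 0 were called higher and 1, CDC6, was called lower, against 26.3% of all loci called higher and 16.6% called lower. CDC6 averaged 4.13 ± 1.63 CPM in flower buds and 12.4 ± 0.0750 CPM in leaf 3 and 4 (SD, n = 2 each). Its log2 fold change was -1.59 ± 0.53 (SE), so it was 3.01-fold lower in flower buds (edgeR adjusted p = 0.0467). That call was lost in 7 of 14 other settings, among them without either flower bud sample, without either of leaf 3 and 4 and with library size only. Over all 14 other settings its adjusted p-values ran from 0.00705 to 0.196 and its log2 fold changes from -2.15 to -0.79, so it was lower in flower buds in each of them.

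CDT1a averaged 27.2 ± 9.69 CPM in flower buds and 8.26 ± 1.06 CPM in leaf 3 and 4 (SD, n = 2 each), a log2 fold change of 1.72 ± 0.66 with an edgeR adjusted p of 0.0736. With DESeq2 its adjusted p was 0.0380, and over all 14 other settings it ran from 0.00437 to 0.326. PCNA2 had 1.12 ± 0.43 (edgeR adjusted p = 0.0763), MCM2 1.05 ± 0.56 (0.170) and MCM6 0.99 ± 0.71 (0.295). MCM3 had 0.70 ± 0.36, MCM4 0.63 ± 0.52, PCNA1 0.58 ± 0.75, MCM5 0.30 ± 0.51 and MCM7 0.20 ± 0.62, with edgeR adjusted p-values from 0.162 to 0.821. At an unadjusted threshold of 0.05, edgeR's quasi-likelihood test called 3 genes, CDC6, CDT1a and PCNA2. The share of all loci at that threshold was not computed, so the 3 calls are not read as more or fewer than among all loci. At the adjusted threshold 26.3% of all loci were called higher and 16.6% lower. Both flower bud samples lay above all 4 leaf samples for 8 of the 10 genes, the exceptions being MCM7 and CDC6, and this held for 33.5% of all loci tested. The full order of flower buds above leaf 3 and 4 above leaf 1 and 2, with no overlap, held for the same 8 genes and for 9.42% of all loci tested. The median log2 fold change of the 10 genes was 0.67, against 0.26 over all loci. With library size only the median over all loci was higher by 0.79, the share of calls that were higher was 84.1% in place of 61.3%, and 6 of the 10 genes were called higher (MCM2, MCM3, MCM4, MCM6, CDT1a and PCNA2). More of the 10 genes were called higher without leaf 1 or without leaf 2, which are in neither group but are in the shared fit of all 6 samples. The median log2 fold change of the 10 genes was 0.665 without leaf 1 and 0.608 without leaf 2, against 0.665 with all samples. The cause was not tested.

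**Figure D2:**
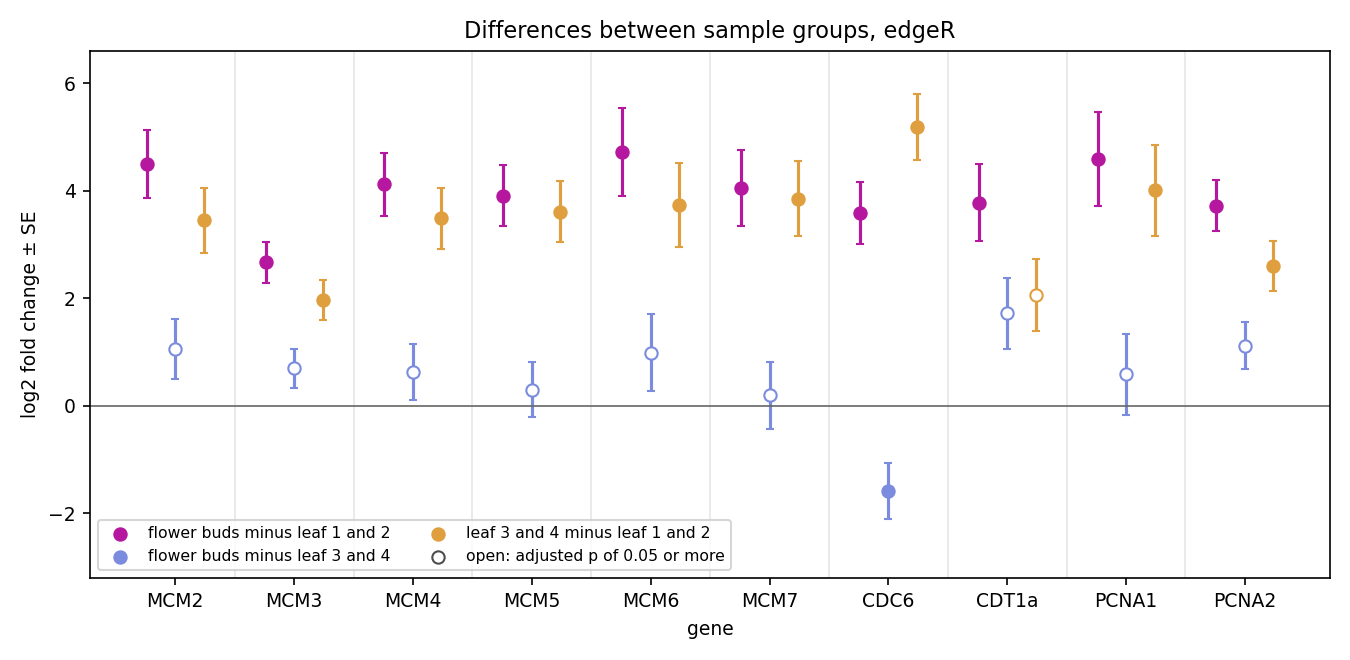
Log2 fold change of the 10 genes in the 3 comparisons, with bars of 1 standard error and open symbols where the edgeR adjusted p was 0.05 or more. CDC6 lies at 3.59, 5.18 and -1.59 in flower buds against leaf 1 and 2, leaf 3 and 4 against leaf 1 and 2, and flower buds against leaf 3 and 4.

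Per kilobase of locus length, the helicase genes lay close together in flower buds and in leaf 3 and 4. In flower buds MCM3 averaged 18.1 ± 6.34 CPM per kilobase, MCM2 17.3 ± 4.88, MCM5 13.5 ± 2.21, MCM7 13.4 ± 4.32, MCM6 12.8 ± 4.14 and MCM4 12.5 ± 0.526 (SD, n = 2). In leaf 3 and 4 the range was from 6.47 ± 0.0899 for MCM6 to 11.7 ± 0.254 for MCM7. The highest of the 6 was 2.19 and 1.66 times the lowest in flower bud 1 and 2, and 1.79 and 1.81 times in leaf 3 and 4. MCM6 was the lowest of the 6 in every sample but flower bud 1, where MCM7 was lowest.

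Leaf 1 and 2 departed from this through MCM3. There the highest of the 6 was 4.39 and 14.8 times the lowest, and without MCM3 it was 1.66 and 2.99 times. MCM3 had 3.66 and 2.03 CPM per kilobase in leaf 1 and 2, the highest level of all 10 genes there, while MCM5, the next of the 6, had 1.39 and 0.409. In the same samples an uncommon share of MCM3 reads fell outside the counted pairs, 12.5% in leaf 1 (632 reads) and 16.9% in leaf 2 (468 reads). It was 0.700% and 0.741% in flower bud 1 and 2 and 0.486% and 0.465% in leaf 3 and 4. A share that high was reached by 2.00% of the 19576 loci with 50 or more pairs in leaf 1 and by 1.30% of 19129 such loci in leaf 2. No annotated locus of TAIR10.1 overlaps MCM3, and whether these reads bear on its level in leaf 1 and 2 was not tested.

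**Figure D3:**
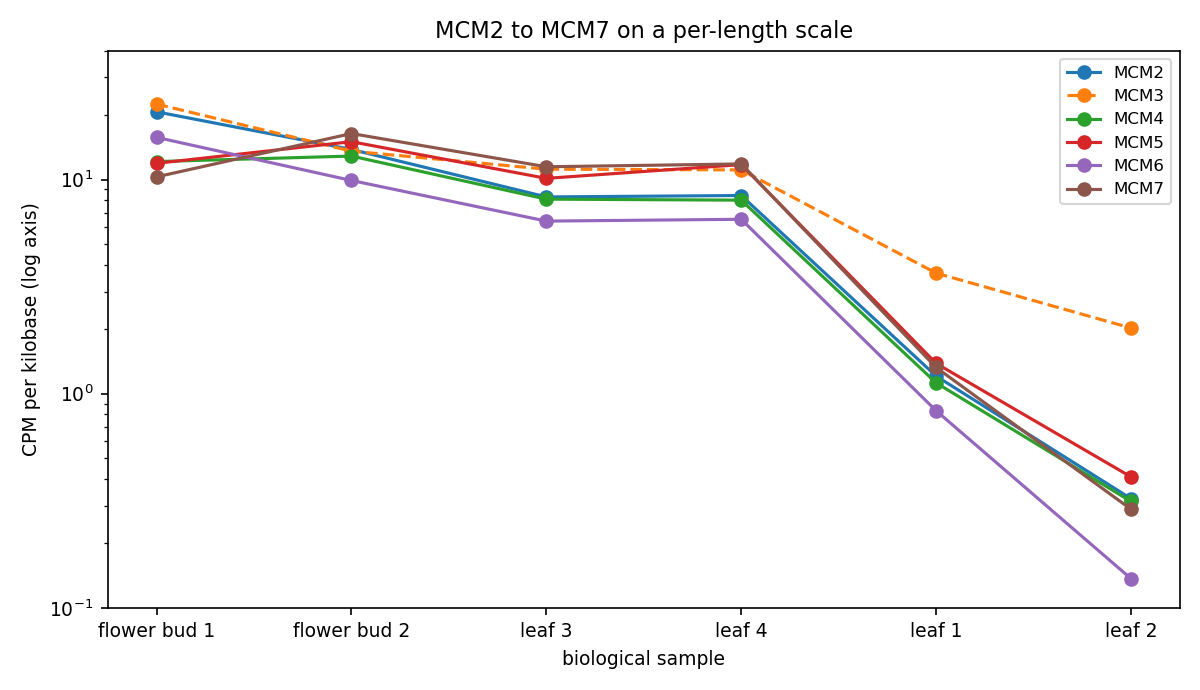
Level of MCM2 to MCM7 in each of the 6 samples in CPM per kilobase of deposited length, on a log axis. The 6 genes lie within 2.19-fold of each other in flower buds and leaf 3 and 4, and in leaf 2 MCM3, at 2.03, stands 14.8-fold above MCM6.

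The loaders exchanged places between the groups on the scale per kilobase. CDT1a was 5.21 and 5.51 times as high as CDC6 in flower bud 1 and 2, 0.585 and 0.491 times in leaf 3 and 4, and 5.19 and 3.24 times in leaf 1 and 2. Set against the mean of the 6 MCM genes, CDC6 stood at 0.206 and 0.133 in flower buds, 0.819 and 0.783 in leaf 3 and 4, and 0.194 and 0.185 in leaf 1 and 2. CDT1a stood at 1.08 and 0.735 of that mean in flower buds, 0.479 and 0.385 in leaf 3 and 4, and 1.01 and 0.600 in leaf 1 and 2. Leaf 3 and 4 were thus the samples apart from the rest in these ratios, high for CDC6 and low for CDT1a. The summed clamp genes stood at 4.86 and 3.01 times the MCM mean in flower buds, 3.43 and 3.27 times in leaf 3 and 4, and 3.32 and 3.39 times in leaf 1 and 2. The ratios in leaf 1 and 2 depend on MCM3, the highest of the 6 MCM genes there. With the mean taken over the other 5, the clamp ratio was 5.34 and 3.01 in flower buds, 3.58 and 3.38 in leaf 3 and 4, and 4.49 and 6.72 in leaf 1 and 2. On that mean CDC6 stood at 0.227 and 0.133 in flower buds, 0.855 and 0.808 in leaf 3 and 4, and 0.262 and 0.367 in leaf 1 and 2, and CDT1a at 1.18 and 0.735, 0.4997 and 0.397, and 1.36 and 1.19 in the same order of samples. Within the clamp, PCNA1 was 0.640 and 0.702 times PCNA2 in flower buds, 0.903 and 1.02 times in leaf 3 and 4, and 0.468 and 0.138 times in leaf 1 and 2.

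Close copies could share reads. The RefSeq transcripts of PCNA1 and PCNA2 had 12 of the 1101 words of 30 bases of PCNA1 in common, with a longest shared run of 41 bases. CDC6 and its second copy CDC6B (AT1G07270) shared 42 of 2180 words, with a run of 71 bases, and CDT1a shared 0 words with CDT1B. No pair among MCM2 to MCM7 shared a word. Overlapping neighbours were annotated for 3 genes, and the strand used in counting is not given in the sources used here. MCM7 overlaps STP7 by 437 bases, and STP7 had 23.7 and 26.7 CPM in flower buds, 9.97 and 11.8 CPM in leaf 3 and 4, and 28.2 and 29.0 CPM in leaf 1 and 2, an order unlike that of MCM7. PCNA2 overlaps ENOC by 279 bases, and ENOC had 36.1 and 24.8 CPM in flower buds, 28.3 and 24.0 CPM in leaf 3 and 4, and 20.0 and 16.5 CPM in leaf 1 and 2. ENOC was lowest in leaf 1 and 2, as PCNA2 was, and lay above PCNA2 there, which had 4.08 and 1.97 CPM. Whether reads of a neighbour entered these counts was not tested. The neighbour of CDC6, AT2G29679, had at most 0.201 CPM in any sample.

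Samples of the same group differed from each other by amounts that themselves followed a pattern. Leaf 1 was above leaf 2 for all 10 genes, against 47.6% of all loci tested, and by more than 2-fold for 9, against 14.5%. The ratio of leaf 1 to leaf 2 was 7.02 for PCNA1, 6.09 for MCM6, 4.59 for MCM7, 4.57 for CDT1a and 3.74 for MCM2, and the lowest were 2.07 for PCNA2 and 1.80 for MCM3. In leaf 3 over leaf 4 the 10 ratios lay between 0.862 for MCM5 and 1.20 for CDT1a. The mitosis markers differed in the same direction, with a sum of 8.04 CPM in leaf 1 and 2.88 CPM in leaf 2. The photosynthesis markers also differed between these samples, with a sum of 52788 CPM in leaf 1 and 27019 CPM in leaf 2. The part of mitotic cells or of the photosynthesis genes in these ratios was not tested.

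Flower bud 1 was above flower bud 2 for 7 of the 10 genes, against 53.5% of all loci tested, and by more than 1.5-fold for 6, against 17.5%. The ratio was 1.92 for PCNA2, 1.77 for CDC6, 1.75 for PCNA1, 1.67 for CDT1a, 1.66 for MCM3, 1.59 for MCM6 and 1.499 for MCM2. It was 0.942 for MCM4, 0.792 for MCM5 and 0.628 for MCM7, the 3 genes higher in flower bud 2. The log2 ratio was lower for longer loci, with a correlation with log2 length of -0.52 over the 10 genes (Pearson; Spearman -0.70), -0.50 over these and the 61 other replication genes described below (Spearman -0.42), and -0.46 over 19003 loci above 1 CPM in both flower bud samples (Spearman -0.48). These points share the same 2 samples and the correlations are given as a description.

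**Figure D4:**
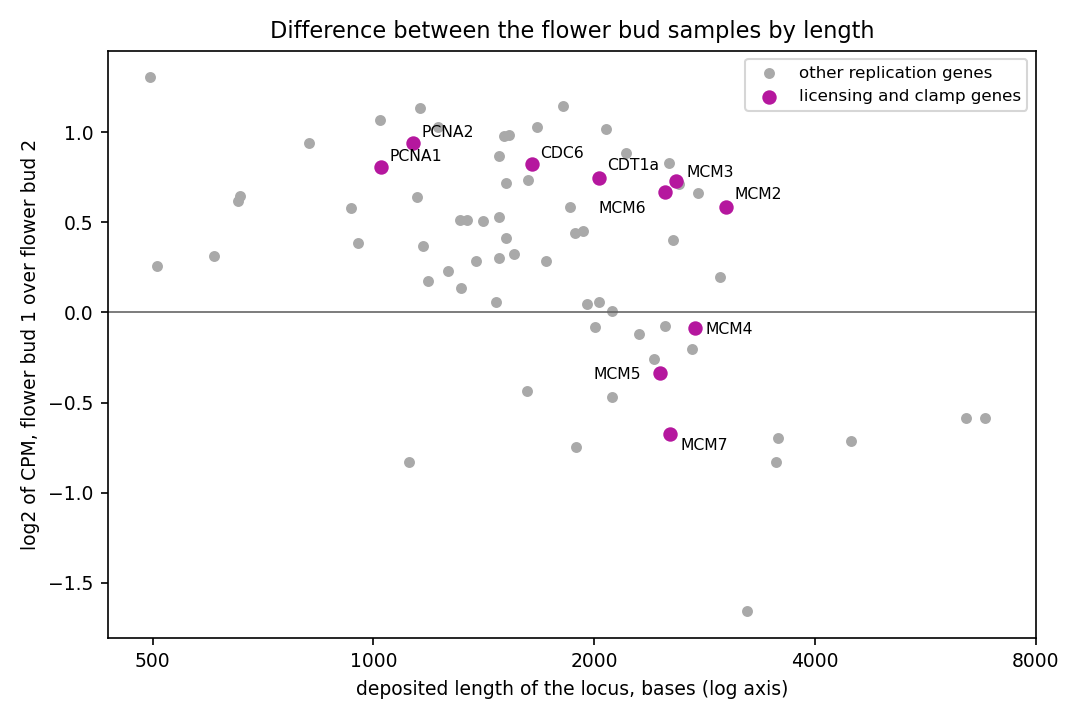
Log2 ratio of CPM in flower bud 1 over flower bud 2 against deposited locus length on a log axis, for the 10 licensing and clamp genes and for 61 other replication genes. PCNA2, a locus of 1133 bases, lies at a ratio of 1.92, and MCM7, of 2540 bases, at 0.628.

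The runs of a sample were compared by their counting intervals. For each gene, the exact 95% counting intervals of CPM in the multiplex run and the HiSeq run of the same sample overlapped in 50 of 50 pairs of runs. The ratio of the multiplex run to the HiSeq run was 0.881 to 1.05 in flower buds. In leaf 1 and 2, where counts were lower, it was 0.451 to 1.34. The ratio of 0.451 was that of CDC6, with 8 pairs in the multiplex run of leaf 1 labelled a technical replicate. Overlap of intervals is a lenient measure, and the multiplex runs of leaf 1 were not compared with each other.

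Other genes of the replication machinery were taken as a list of 61 loci in 11 roles, all 61 of which were tested. In flower buds against leaf 1 and 2, 45 were higher and 0 lower, against 30.5% of all loci called higher, with a median log2 fold change of 2.39 against 0.15 over all loci. In leaf 3 and 4 against leaf 1 and 2, 36 were higher and 0 lower, against 12.1% of all loci called higher, with a median of 1.61 against -0.07 over all loci. In flower buds against leaf 3 and 4, 8 were higher and 0 lower, against 26.3% of all loci called higher, with a median of 0.54 against 0.26 over all loci. By edgeR's quasi-likelihood test at an unadjusted threshold of 0.05, and by DESeq2, the number lower was 0 in all 3 comparisons as well. As for the 10 licensing and clamp genes, the calls in leaf 3 and 4 against leaf 1 and 2 were fewer without leaf 3 or leaf 4, at 8 and 4 genes, and with no sequencer term 5 genes were called higher in flower buds. The E2F motif stood in 20 of the 61 promoters (32.8%), against 1.76% of all promoters.

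Upstream of the helicase, 6 of 7 genes of the origin recognition complex were higher in flower buds than in leaf 1 and 2, against 30.5% of all loci. The 7 genes ran from ORC1A at 4.21 ± 0.61 (log2 and SE, edgeR adjusted p = 0.00172) down to the uncalled ORC5 at 0.30 ± 0.28 (0.394). ORC5 had 14.4 and 10.5 CPM in flower buds, 9.79 and 8.15 CPM in leaf 3 and 4, and 9.34 and 10.9 CPM in leaf 1 and 2, a nearly level profile in a complex whose other genes were low in leaf 1 and 2. The second copies of the loaders were both higher, CDT1B at 4.27 ± 0.53 and CDC6B at 3.21 ± 0.79 (edgeR adjusted p = 0.000888 and 0.0133). CDC6B had 2.18 and 1.33 CPM in flower buds, 1.45 and 1.74 CPM in leaf 3 and 4, and 0.318 and 0.0592 CPM in leaf 1 and 2. Flower buds and leaf 3 and 4 overlapped for CDC6B, unlike for CDC6.

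CDC45, the GINS genes, MCM10 and ETG1 were grouped as partners of the helicase. Of these, 5 of 8 were higher in flower buds than in leaf 1 and 2, against 30.5% of all loci called higher. MCM10, which acts when the helicase is activated, was at 4.30 ± 0.91 (log2, SE; edgeR adjusted p = 0.00743), and AT3G55490, a GINS complex protein, was at 0.15 ± 0.36 (0.747). MCM8 and MCM9, relatives of the helicase that are not part of the MCM2 to MCM7 ring, gave 1 call: MCM8 was higher by 1.33 ± 0.36 (edgeR adjusted p = 0.0182) and MCM9 had 0.29 ± 0.29 (0.435). Of 11 DNA polymerase and primase genes, 10 were higher, from POL2B, a catalytic subunit of polymerase epsilon, at 4.70 ± 0.45 (edgeR adjusted p = 0.000381) to the uncalled POLD4 at 0.49 ± 0.30 (0.210). Of 5 genes of replication factor C, which loads the clamp, 4 were higher, AT1G63160 by 2.44 ± 0.30, while RFC1 had -0.16 ± 0.50 (edgeR adjusted p = 0.000854 and 0.802).

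Of 9 genes of replication protein A, which coats single-stranded DNA, 7 were higher in flower buds than in leaf 1 and 2, against 30.5% of all loci. RPA1B was at 4.86 ± 1.04 (log2 and SE, edgeR adjusted p = 0.00776) and RPA2B at 0.70 ± 0.35 (0.133). AT5G26680, annotated as an exonuclease of the 5′-3′ family, was higher by 2.39 ± 0.27 and the DNA ligase LIG1 by 1.05 ± 0.22 (edgeR adjusted p = 0.000663 and 0.00692). Of the ribonucleotide reductase genes, RNR1 and TSO2 were higher, RNR1 by 3.11 ± 0.38, and RNR2A had -0.15 ± 0.27 (edgeR adjusted p = 0.000865 and 0.668). All 3 genes of chromatin assembly factor CAF-1 were higher, from MSI1 at 0.99 ± 0.29 to FAS2 at 2.88 ± 0.38 (edgeR adjusted p = 0.0251 and 0.00112). In the E2F and RBR1 group 3 of 9 were higher, against 30.5% of all loci called higher, led by the atypical E2F gene DEL3 at 4.89 ± 0.52 (edgeR adjusted p = 0.000530), and DEL2 had -0.91 ± 0.67 (0.288). The 3 were E2Fc, DEL1 and DEL3.

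In leaf 3 and 4 against leaf 1 and 2, the called list genes with the highest log2 fold changes were MCM10 at 4.10 ± 0.91, DEL3 at 4.06 ± 0.51 and RPA1B at 3.95 ± 1.00 (SE; edgeR adjusted p = 0.0189, 0.00426 and 0.0290). Those with the lowest were AT1G21690, of replication factor C, at 1.16 ± 0.22, LIG1 at 1.17 ± 0.22 and ORC4 at 1.22 ± 0.35 (edgeR adjusted p = 0.0115, 0.0120 and 0.0422). By role, 6 of 7 origin recognition genes, 5 of 8 helicase partners, 8 of 11 polymerase genes and 2 of 9 genes of the E2F and RBR1 group were higher. Of all loci tested, 12.1% were called higher in this comparison and 15.2% lower. No role held a gene called lower.

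**Figure D5:**
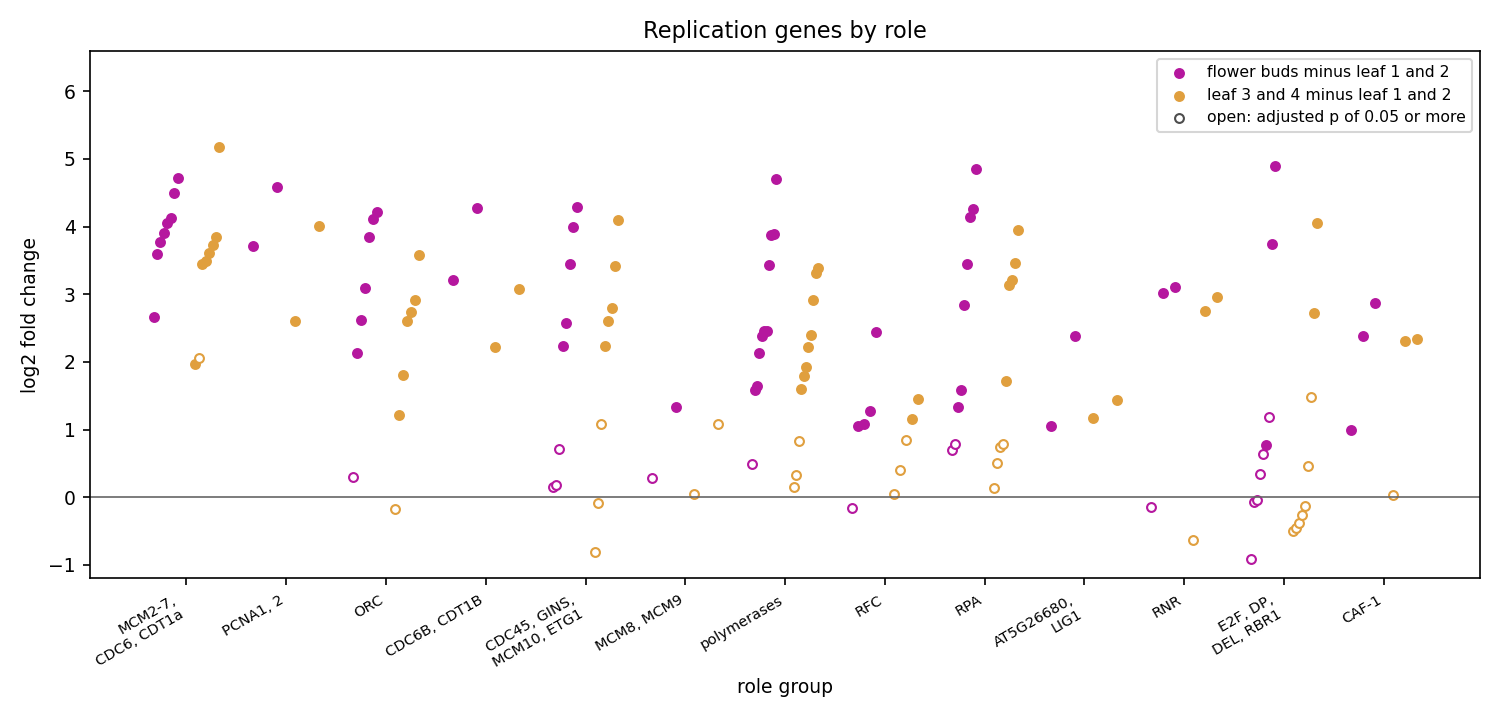
Log2 fold change of the 10 licensing and clamp genes and of 61 other replication genes by role, for flower buds against leaf 1 and 2 and for leaf 3 and 4 against leaf 1 and 2, with open points where the edgeR adjusted p was 0.05 or more. The MCM, CDC6 and CDT1a group runs from 2.67 to 4.72 in flower buds against leaf 1 and 2, and the E2F and RBR1 group from -0.91 to 4.89.

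Markers of mitosis were higher in both comparisons with leaf 1 and 2 and also in flower buds against leaf 3 and 4. The 6 mitosis markers (CYCB1;1, CYCB1;2, KNOLLE, TPX2, CDKB2;1 and CDKB2;2) summed to 264 and 184 CPM in flower buds, 29.8 and 38.8 CPM in leaf 3 and 4, and 8.04 and 2.88 CPM in leaf 1 and 2. All 6 were called higher in each of the 3 comparisons. Their median log2 fold changes were 5.39 in flower buds against leaf 1 and 2, 2.69 in leaf 3 and 4 against leaf 1 and 2, and 2.87 in flower buds against leaf 3 and 4. Of all loci, 30.5%, 12.1% and 26.3% were called higher in the same order, with medians of 0.15, -0.07 and 0.26. The geometric mean CPM of the 10 licensing and clamp genes was 0.805 and 0.847 times that of the mitosis markers in flower buds, 4.32 and 3.46 times in leaf 3 and 4, and 2.54 and 1.87 times in leaf 1 and 2. No test was run on this ratio. The AACGG core stood in 5 of the 6 mitosis promoters, against 24.7% of all promoters. The E2F motif stood in 0 of the 6, near the 1.76% of all promoters.

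Other cell markers are given for the same samples. Shoot meristem markers (STM, WUS, CLV3, KNAT2 and BP) summed to 91.3 and 101 CPM in flower buds. Their sum was 0.106 and 0.235 CPM in leaf 3 and 4, and 0.378 and 0.269 CPM in leaf 1 and 2. STM, WUS and CLV3 were at 0 in leaf 3 and 4, the shallowest samples. WUS was also at 0 in leaf 2. CLV3 was also at 0 in leaf 1, leaf 2 and flower bud 2, and had 11 pairs in flower bud 1. Markers of the young growing leaf (ANT, GRF5, GIF1, GRF1 and GRF2) summed to 169 and 145 CPM in flower buds, 23.0 and 28.3 CPM in leaf 3 and 4, and 20.1 and 20.1 CPM in leaf 1 and 2. Of these, 2 of 5 were called higher in leaf 3 and 4 than in leaf 1 and 2, against 12.1% of all loci, with a median log2 fold change of 0.60. By group means ANT, GIF1 and GRF2 were higher in leaf 3 and 4. GRF1 was lower there, at 10.7 against 13.8 CPM, and so was GRF5, at 0.0177 against 0.0418 CPM. Endocycle markers (CCS52A1, CCS52A2, SIM, SMR1 and CCS52B) summed to 81.2 and 94.3 CPM in flower buds, 44.4 and 45.3 CPM in leaf 3 and 4, and 87.7 and 66.7 CPM in leaf 1 and 2. SMR1, an inhibitor of cyclin-dependent kinases, alone had 17.5 and 24.1 CPM in flower buds, 19.3 and 18.4 CPM in leaf 3 and 4, and 65.1 and 45.4 CPM in leaf 1 and 2. Without it the other 4 summed to 63.7 and 70.2 CPM in flower buds, 25.1 and 26.9 CPM in leaf 3 and 4, and 22.6 and 21.4 CPM in leaf 1 and 2, which turns the order of the leaf groups. In leaf 3 and 4 against leaf 1 and 2, SMR1 and CCS52A2 were called lower and CCS52B higher. CCS52B, known as expressed around mitosis, had 27.6 and 35.02 CPM in flower buds, 4.84 and 4.86 CPM in leaf 3 and 4, and 2.23 and 1.22 CPM in leaf 1 and 2. Without CCS52B but with SMR1, the endocycle sum was 39.6 and 40.4 CPM in leaf 3 and 4. It was 85.5 and 65.5 CPM in leaf 1 and 2, which keeps the order of the leaf groups. The order of the leaf groups thus depended on which single gene was left out. SMR1 and CCS52B were singled out after their values were seen. The 5 pollen markers summed to 1808 and 3198 CPM in flower buds, 0 and 0.201 CPM in leaf 3 and 4, and 2.77 and 2.01 CPM in leaf 1 and 2. The part of these cell types in the levels of the licensing genes was not tested.

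The loci most like the mean profile of the 10 genes over the 6 samples were ranked by the root mean square difference of centred log2 CPM, with 0.01 CPM added. WEE1, a protein kinase, was nearest at 0.0922, with 4.95 and 3.83 CPM in flower buds, 2.93 and 3.25 CPM in leaf 3 and 4, and 0.516 and 0.118 CPM in leaf 1 and 2. It was followed by AT1G71760 at 0.131, ABAP1 at 0.156, AT1G20720 at 0.166, POLA2 at 0.191, TSK at 0.197, AT5G10890 at 0.212 and AT1G75150 at 0.215. Of the 10 genes themselves, MCM4 was nearest to their mean at 0.162, and MCM3 at 0.811 and CDC6 at 0.939 were the farthest.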

How the data were processed

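The deposited files give, per library, raw counts of read pairs, single reads and pairs within an insert limit for 28094 loci, with locus lengths; per the file headers, the mates of a pair lay on a common reference. Bowtie2 2.0 was used, per the submitters' processing notes. Neither the build, nor how multiply mapping reads and strand were treated, is given in the sources used here, so no coordinates are printed. Pair counts of the 11 libraries were summed over runs to 6 samples and tested in R 4.3.3 by edgeR 4.0.16 (TMM factors, filterByExpr with a minimum count of 10, quasi-likelihood F-test, Benjamini-Hochberg adjustment over 24043 loci, called at an adjusted p under 0.05). All 6 samples in 3 groups shared the fit. SEs are the log2 fold change over the square root of F. The script was tested on simulated data. DESeq2 1.42.0 and other scalings, filters, runs, samples and the insert-limited counts were alternatives. CPM intervals are exact 95% Poisson intervals and cover counting error only. Named were all 10 members, the list genes with the largest and smallest log2 fold change of each role in flower buds against leaf 1 and 2, the 3 largest and 3 smallest called in leaf 3 and 4 against leaf 1 and 2, and the 8 loci nearest to the mean profile. ORC5 and CDC6B levels, and E2Fc, DEL1 and TSO2, were named after their values were seen. The members and lists were chosen with earlier results of these data known. Promoters and transcripts are from RefSeq, TAIR10.1, matched by locus identifier for all 10 members and all 61 list genes.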

Additional observations from a re-analysis of the deposited data

Results flagged for a closer look

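MCM3 had 12.5% of its reads outside the counted pairs in leaf 1 and 16.9% in leaf 2, a signal in columns that the comparisons do not use. The median over loci with 50 or more pairs was 1.11% in leaf 1 and 1.01% in leaf 2. No other gene of the 10 passed 5% in any sample; the next was CDC6 in leaf 1, at 4.84% (12 reads).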

How the results depend on the processing

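The lowest counts were in leaf 2, where CDC6, PCNA1 and MCM6 rest on 39, 54 and 75 pairs, although leaf 3 and 4 were the shallowest samples. In flower buds against leaf 1 and 2, all 10 genes were called higher in 16 of 17 settings. With no sequencer term 0 of them and 5 list genes were called higher, with 4796 of all loci higher and 2397 lower, and CDC6 turned to -0.62; with library size only, 2991 of all loci were lower. In flower buds against leaf 3 and 4, library size only gave 6 of the 10 genes higher and 0 lower, 41 list genes higher, 12288 of all loci higher and 2320 lower, and LIG1 turned to 0.67. In that comparison multiplex runs alone and DESeq2 each gave 1 gene higher, CDT1a, and upper quartile factors and HiSeq runs alone gave 0 lower.

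Leaving out 1 sample at a time, flower buds against leaf 1 and 2 gave 0 to 1 list genes lower and 4596 to 7471 of all loci higher. Leaf 3 and 4 against leaf 1 and 2 gave 1 to 10 of the 10 genes, 4 to 39 list genes and 286 to 3601 of all loci higher, and 336 to 3698 of all loci lower. Flower buds against leaf 3 and 4 gave 0 to 5 of the 10 genes higher and 0 to 1 lower, 1 to 14 list genes higher and 0 to 1 lower, and 3056 to 7233 of all loci higher and 2208 to 4808 lower. The causes were not tested. With a replicate block over flower bud 1 and 2 and leaf 1 and 2, 10 of the 10 genes, 44 list genes and 6899 of all loci were higher and 4789 lower. The numbers were not taken as pairs, because the labels do not say that a number marks a shared source. The deviations of same-numbered samples correlated at 0.25 over 24043 loci, which with 2 pairs cannot decide the matter.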
